A study of Mus musculus with 4 samples.

Results

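The genes described here are 10 components of the circadian clock, the cell-autonomous oscillator that times transcription to the day and night cycle. They comprise 7 genes of the output and repressor arm, Dbp, Tef, Hlf, Nr1d1, Nr1d2, Per2 and Per3, and 3 genes whose transcripts peak at the other end of the cycle, Arntl (also called Bmal1), Npas2 and Nfil3. They were picked by name from the 21931 genes of the deposited table, and the choice was made with the values of all 4 libraries in view. The contrasts between the libraries are therefore given for these genes as a description, and no p-value of theirs is printed. Counts of those past a threshold stand beside the share of the genes compared that passed it.

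RNA was sequenced from whole lung of C57BL6 mice aged 2 months that had received no treatment. The 4 libraries comprised 2 labelled as Dnah9 knockout, 1 labelled Hez and 1 from wild type. Hez is kept here as written, since its meaning is not explained. Dnah9 encodes a dynein motor subunit of motile cilia, and the question of the series is which genes differ in its absence. Hez and wild type had 1 library each. The p-values below measure only the spread between libraries, moderated over all genes. Against wild type or Hez alone that spread is the knockout pair's, and may be technical because nothing says those libraries came from separate mice. Against both together, Hez and wild type are entered as the same group, so the difference between these genotypes enters the spread. With a knockout library left out, that difference is all of the spread before moderation. The sources used here state neither the hour of collection nor the deleted part of Dnah9.

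The libraries held 15860478 to 16553480 reads, and the clock genes had between 81 (Dbp) and 3534 (Tef) of them in a library. Dnah9 itself stood at 14.8 and 15.98 CPM (reads scaled to the library total and by the trimmed mean of M values, TMM) in the knockout libraries, 25.4 in Hez and 56.6 in wild type. The lung marker Sftpc, a surfactant protein gene of alveolar type 2 cells, stood at 13872 and 13775 CPM in the knockouts, 12682 in Hez and 12164 in wild type. In contrast, of 3 kidney markers Umod and Kap had no reads in any library, and Slc34a1 had 1 read, in knockout 1. The 3 liver markers summed to 3.81 and 4.84 CPM in the knockouts, 4.23 in Hez and 4.94 in wild type.

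The clock runs as a loop of activators and repressors. Arntl pairs with Clock or its paralogue Npas2 and activates genes that carry an E-box, among them the Per genes, Dbp, Tef, Hlf, Nr1d1 and Nr1d2. The period proteins then block Arntl, while the nuclear receptors encoded by Nr1d1 and Nr1d2 (REV-ERB alpha and beta) repress Arntl, Npas2 and Nfil3 through ROR elements. Dbp, Tef and Hlf activate genes through D-boxes, and Nfil3 represses through the same element. In mouse lung the clock runs in airway epithelium, fibroblasts, macrophages and other cell types.

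To set these regulatory elements beside the expression values, the windows of 300 bases around the start sites (250 before and 50 after) held by RefSeq on GRCm38.p6 were searched on both strands. The letters searched were the E-box CACGTG, the E'-box CACGTT, the D-boxes TTATGTAA and TTACGTAA, the ROR elements TAGGTCA and TGGGTCA, and the cAMP response element TGACGTCA. Of the 10 genes, 9 matched an entry of the table by symbol, with 11 windows between them, and 6 had at least 1 match. The windows below are those with a match, except that 1 of the 2 for Tef is shown. They are printed 5′ to 3′ on the strand of the gene, with the matched element in capitals. For the first 5 they are the 250 bases before the start site, and for Arntl they are 30 bases around the element, which lies 31 bases after the start.

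Tef, chr15:81811164-81811413 (+), E-box: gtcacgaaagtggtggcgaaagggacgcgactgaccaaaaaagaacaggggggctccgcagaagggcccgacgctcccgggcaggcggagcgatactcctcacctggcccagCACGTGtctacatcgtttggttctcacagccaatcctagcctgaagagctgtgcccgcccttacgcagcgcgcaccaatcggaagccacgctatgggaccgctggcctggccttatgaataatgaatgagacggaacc
Nr1d1, chr11:98775378-98775627 (-), E'-box read on the other strand: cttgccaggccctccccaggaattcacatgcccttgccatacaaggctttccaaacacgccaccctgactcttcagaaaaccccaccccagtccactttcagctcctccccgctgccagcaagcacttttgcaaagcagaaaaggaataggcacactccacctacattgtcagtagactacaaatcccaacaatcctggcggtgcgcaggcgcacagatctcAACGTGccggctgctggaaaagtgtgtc
Per3, chr4:151044666-151044915 (-), D-boxes: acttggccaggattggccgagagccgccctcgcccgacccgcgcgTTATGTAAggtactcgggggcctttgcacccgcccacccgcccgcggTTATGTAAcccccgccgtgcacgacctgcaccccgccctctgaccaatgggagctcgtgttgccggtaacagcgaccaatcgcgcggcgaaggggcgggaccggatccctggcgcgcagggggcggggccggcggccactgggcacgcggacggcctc
Hlf, chr11:90390918-90391167 (-), cAMP response element: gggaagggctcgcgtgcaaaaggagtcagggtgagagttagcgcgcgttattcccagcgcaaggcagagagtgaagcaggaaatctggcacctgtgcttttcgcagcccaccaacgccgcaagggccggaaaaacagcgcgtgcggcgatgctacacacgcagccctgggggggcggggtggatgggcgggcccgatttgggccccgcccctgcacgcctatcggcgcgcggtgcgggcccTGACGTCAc
Nfil3, chr13:52981040-52981289 (-), ROR element read on the other strand: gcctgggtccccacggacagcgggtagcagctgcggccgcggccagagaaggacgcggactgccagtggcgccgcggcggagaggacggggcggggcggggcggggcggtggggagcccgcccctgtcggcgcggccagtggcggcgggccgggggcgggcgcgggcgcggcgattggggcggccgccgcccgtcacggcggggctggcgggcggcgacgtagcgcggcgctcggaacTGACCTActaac
Arntl, chr7:113207530-113207559 (+), ROR element: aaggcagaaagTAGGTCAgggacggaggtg

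The second window of Tef, from an upstream start, also held CACGTG, 127 bases before that start, against 138 bases in the window shown. CACGTG occurred in 7.15% of all 32851 windows of the table. The E'-box of Nr1d1 began 28 bases before its start site, and CACGTT occurred in 4.68% of all windows. Per3 held TTATGTAA at 205 and 158 bases before its start, a pair that 7 of all windows (0.0213%) had at least in that number, while 0.938% had the element at all. TAGGTCA, found 12 bases before the start of Nfil3 and 31 bases after that of Arntl, occurred in 2.61% of all windows. The cAMP response element of Hlf began 9 bases before its start, and 1.79% of all windows held those letters. The windows of Dbp, Nr1d2 and Npas2 held none of the letters searched, and no 2 matches in the windows of these genes overlapped. The ROR letters were found only in windows of opposite-phase genes and the E-box, E'-box and D-box letters only in windows of output genes, a description of 9 genes and of these short windows.

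All 7 output genes lay lower in both knockout libraries than in Hez and in wild type, and all 7 were higher in Hez than in wild type. The D-box activators came out as follows. Dbp (ENSMUSG00000059824, chr7:45354512-45359627 on GRCm39) had 81 and 121 reads in the knockout libraries, 237 in Hez and 185 in wild type, which corresponds to 4.98 and 7.61 CPM in the knockouts, 14.3 in Hez and 11.4 in wild type. Knockout 1 thus held 43.6% and knockout 2 66.7% of the wild-type level of Dbp, and the 95% exact Poisson intervals of the knockout libraries, 3.95 to 6.19 and 6.32 to 9.10 CPM, did not overlap. These intervals cover counting error only.

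Tef (ENSMUSG00000022389, chr15:81686622-81711064) was the most abundant D-box activator, with 129 and 121 CPM in the knockouts, 214 in Hez and 184 in wild type. Both knockout libraries agreed within counting error, at 70.2% and 65.7% of wild type. Hlf (ENSMUSG00000003949, chr11:90227362-90281721) had 8.30 and 10.2 CPM in the knockouts, 23.2 in Hez and 17.9 in wild type. The knockout intervals of Hlf overlapped each other and lay below those of Hez and wild type.

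The same order appeared in the REV-ERB receptors. Nr1d1 (ENSMUSG00000020889, chr11:98658758-98666159) stood at 74.9 and 64.2 CPM in the knockouts, 126 in Hez and 95.7 in wild type. Nr1d2 (ENSMUSG00000021775, chr14:4230569-4265642) stood at 58.1 and 61.6 CPM in the knockouts, 95.2 in Hez and 78.1 in wild type. Nr1d1 thus held 78.3% and 67.1%, and Nr1d2 74.4% and 78.9%, of its wild-type level in the knockouts. For both receptors the Hez library was the highest of the 4 and the knockout libraries were the lowest.

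Of the period genes, Per2 (ENSMUSG00000055866, chr1:91343704-91387046) had 25.3 and 18.1 CPM in the knockouts, 39.0 in Hez and 38.0 in wild type. Here Hez and wild type were alike, with intervals of 36.1 to 42.1 and 35.1 to 41.1 CPM, and the knockout libraries differed from each other beyond counting error. Per3 (ENSMUSG00000028957, chr4:151088109-151129122), a period gene whose loss in mice affects the clock less than that of Per2, had 24.6 and 28.7 CPM in the knockouts, 43.7 in Hez and 37.9 in wild type. Per3 therefore followed the order of the receptors, with the knockout libraries lowest and Hez highest.

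The opposite-phase genes did not share 1 order. Arntl (ENSMUSG00000055116, chr7:112806672-112913333), the activator at the centre of the loop, stood at 46.7 and 41.2 CPM in the knockouts, 38.8 in Hez and 43.9 in wild type, so that wild type lay between the knockout libraries. Npas2 (ENSMUSG00000026077, chr1:39232812-39402317), the partner of Arntl, stood at 26.5 and 24.7 CPM in the knockouts, 14.8 in Hez and 23.2 in wild type. The low value of Npas2 was that of Hez, whose interval of 13.0 to 16.7 CPM lay apart from the other 3. Nfil3 (ENSMUSG00000056749, chr13:53121245-53135109), the D-box repressor, stood at 16.8 and 15.8 CPM in the knockouts, 15.2 in Hez and 12.8 in wild type. Only wild type was low for Nfil3, and its interval of 11.1 to 14.6 CPM overlapped those of Hez and knockout 2.

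**Figure D1:**
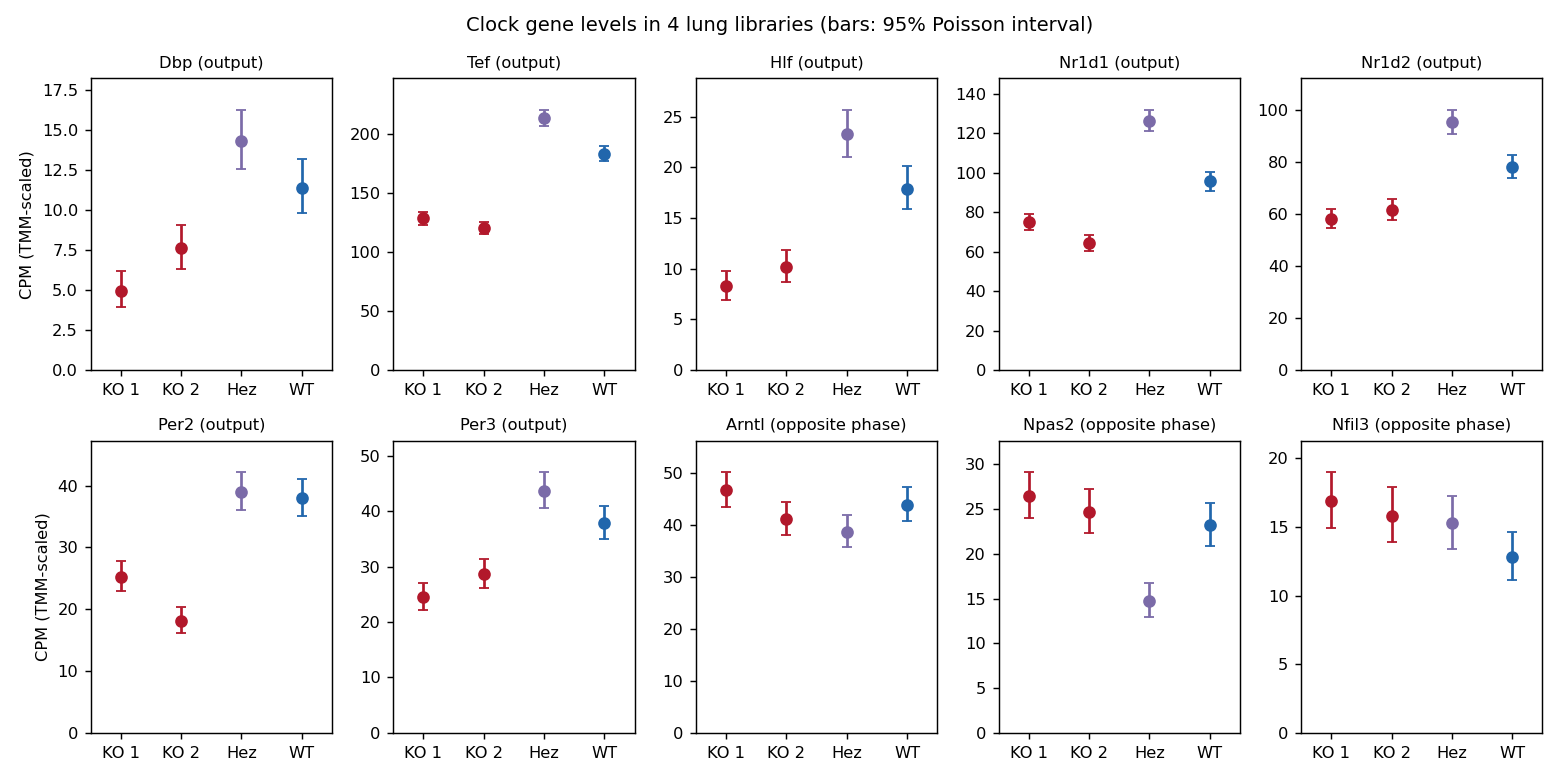
TMM-scaled CPM of each clock gene (vertical axis, from 0) in knockout 1 and 2 (red), Hez (violet) and wild type (blue), with bars for the 95% exact Poisson interval. In the 7 output panels both knockout points lie below Hez and wild type, while the 3 opposite-phase panels show no common order.

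Per length, Nr1d1 was the most abundant of the 10 genes, with a mean of 29.3 ± 8.90 FPKM (reads scaled to library total and gene length; SD over the 4 libraries), followed by Tef at 20.6 ± 5.70 and Nr1d2 at 13.5 ± 3.17 FPKM. Nfil3 stood at 7.48 ± 0.817, Arntl at 5.67 ± 0.445, Per2 at 5.14 ± 1.74 and Npas2 at 4.65 ± 1.08 FPKM. The lowest were Per3 at 3.51 ± 0.908, Dbp at 3.21 ± 1.38 and Hlf at 2.23 ± 1.04 FPKM. In this order only Nr1d2 and Nfil3, and Nfil3 and Arntl, had ranges over the libraries that did not overlap, and every other pair of neighbours overlapped. The order of some neighbours turned between groups. Per2 stood below Npas2 in both knockout libraries (4.28 and 3.10 FPKM, against 5.49 and 5.17 for Npas2), but above it in Hez (6.65 against 3.08 FPKM) and in wild type (6.53 against 4.87 FPKM).

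In the comparison of knockout with wild type, the fitted log2 folds of the 7 outputs ran from -0.95 for Hlf (SE 0.208) to -0.38 for Nr1d2 (SE 0.102), with a median of -0.56. Between these lay Dbp at -0.86 (SE 0.293), Per2 at -0.81 (SE 0.197), Tef at -0.56 (SE 0.101), Per3 at -0.51 (SE 0.149) and Nr1d1 at -0.46 (SE 0.118). The opposite-phase genes had a median of 0.14, with Arntl at 0.00 (SE 0.132), Npas2 at 0.14 (SE 0.164) and Nfil3 at 0.35 (SE 0.196). Over all 15055 genes tested the median was 0.00. The sign of the Arntl value changed with the scaling and with the filter on low counts, so no direction is given for it.

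Against Hez the outputs lay further down, with a median of -0.85 and a range from -1.33 for Hlf (SE 0.203) to -0.67 for Nr1d2 (SE 0.101). Dbp stood at -1.19 (SE 0.288), Nr1d1 at -0.86 (SE 0.116), Per2 at -0.85 (SE 0.197), Tef at -0.78 (SE 0.100) and Per3 at -0.71 (SE 0.148). Opposite-phase genes stood at 0.79 for Npas2 (SE 0.172), 0.18 for Arntl (SE 0.134) and 0.10 for Nfil3 (SE 0.192), with a median of 0.18. The median of all genes tested was 0.01. Both comparisons share the knockout libraries, so their values are set side by side and not counted as separate evidence. Against wild type and Hez together the medians were -0.68 for the outputs and 0.22 for the opposite-phase genes.

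**Figure D2:**
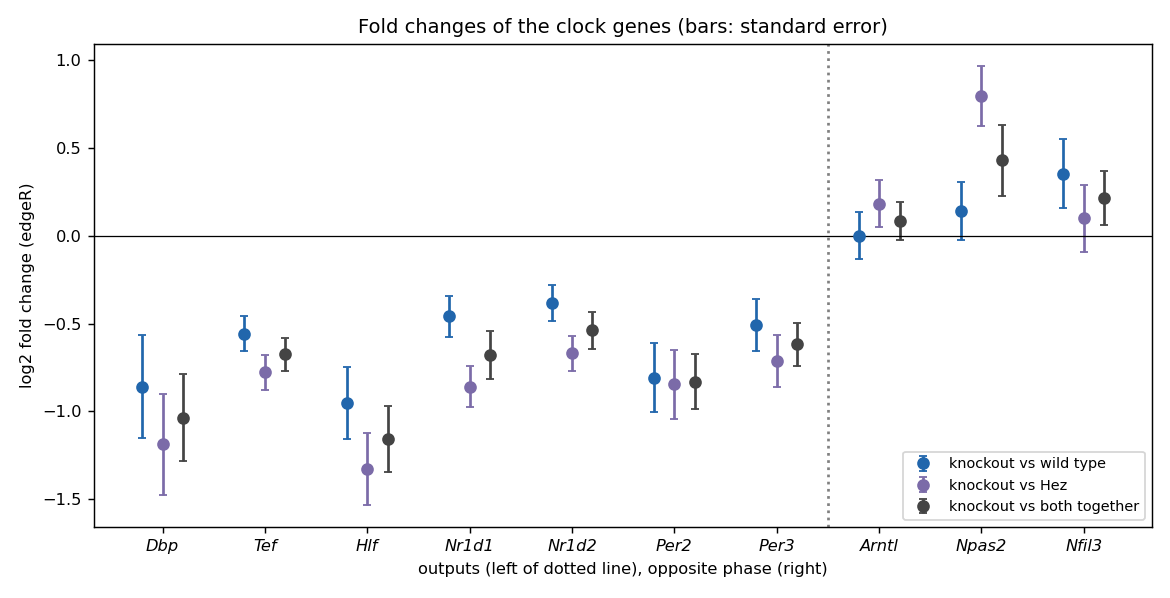
Fitted log2 fold change (vertical axis) of each clock gene in the knockout libraries against wild type (blue), Hez (violet) and both together (grey), with bars for the standard error. The 7 outputs left of the dotted line lie between -1.33 and -0.38, and the 3 opposite-phase genes lie between 0.00 and 0.79.

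At an adjusted p below 0.05 (edgeR quasi-likelihood test, Benjamini-Hochberg), 0 of the 10 genes were called against wild type, where 0.0531% of all genes were (0.0399% lower and 0.0133% higher), and 0 against Hez, where 0.00664% were. Against both together the count was 0 of 10, with 0.0136% of all genes called. Leaving out knockout 1 made that count 3 (Tef, Nr1d1 and Per2), with 0.715% of all genes called, and leaving out knockout 2 made it 1 (Hlf), with 0.16% called. It was 0 without Hez (0.0535% of all genes) and 0 without wild type (0.0067%). At an unadjusted p below 0.05, 7 of 7 outputs were lower against wild type (3.37% of all genes), against Hez (2.11%) and against both together (2.75%), with the share of all genes in parentheses. Of the 3 opposite-phase genes, 0 were higher against wild type (1.81%), 1 against Hez (Npas2; 2.5%) and 0 against both together (2.3%). The DESeq2 Wald test called 0 of the 7 members with an adjusted p against wild type, and 0.179% of the 8925 genes with one. Against Hez it called 2 of 10 (Tef and Nr1d1), and 0.0465% of 15055 genes. Against both together it called 4 of the 6 with an adjusted p (Tef, Nr1d1, Nr1d2 and Per2), and 0.421% of 7846 genes. These shares are of the genes to which DESeq2 gave an adjusted p, a different base from that of edgeR. Since the genes were chosen with these contrasts in view, nothing is read from these counts.

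The ordering can be set beside that of all genes in the same way. Both knockout libraries lay below Hez and wild type in 7 of 7 outputs, and in 16.3% of all tested genes. They lay above both in 2 of the 3 opposite-phase genes, Npas2 and Nfil3, and in 17.5% of all tested genes. The knockout intervals of Npas2 overlapped that of wild type, and those of Nfil3 overlapped that of Hez. The fitted folds there, 0.14 (SE 0.164) and 0.10 (SE 0.192), were smaller than their SE. The fuller order of knockout lowest, wild type next and Hez highest held for all 7 outputs and for 8.22% of tested genes. These shares describe the table and carry no test of the chosen genes.

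Hez and wild type, 1 library each, were compared without a test. Hez was higher than wild type in 7 of 7 outputs, where 49.5% of all tested genes were, with differences of log2 CPM from 0.04 for Per2 to 0.40 for Nr1d1 and a median of 0.29. The Poisson intervals of the libraries lay apart for 4 outputs, Tef, Hlf, Nr1d1 and Nr1d2, and overlapped for Dbp, Per2 and Per3. Intervals lay apart in 18% of all tested genes, and in 21% of those at a mean of 10 CPM or more. Among the opposite-phase genes, Npas2 differed by -0.65 with intervals apart, Arntl by -0.18 and Nfil3 by 0.25 with intervals overlapping. Over all tested genes the median difference was -0.00.

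Within the knockout pair the outputs did not move as a block. Knockout 2 exceeded knockout 1 by 0.60 in Dbp, 0.29 in Hlf, 0.22 in Per3 and 0.08 in Nr1d2 on the log2 CPM scale. It stood at -0.48 relative to knockout 1 in Per2, -0.22 in Nr1d1 and -0.10 in Tef. The Poisson intervals of the pair were apart for Dbp, Nr1d1 and Per2 and for none of the 3 opposite-phase genes. They were apart in 19.6% of all tested genes, and in 23% of those at a mean of 10 CPM or more. The output medians relative to wild type were -0.59 for knockout 1 and -0.58 for knockout 2. Relative to Hez they lay further apart, at -0.75 for knockout 1 and -0.90 for knockout 2.

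The balance of both phases was taken within each library, so that scaling between libraries does not enter. The mean log2 FPKM of the outputs minus that of the opposite-phase genes was -0.35 in knockout 1 and -0.17 in knockout 2, against 1.02 in Hez and 0.56 in wild type. The mean of the outputs was thus below that of the opposite-phase genes in the knockout libraries, and above it in Hez and wild type. Single genes did not follow the means. Nr1d1, Tef and Nr1d2 exceeded every opposite-phase gene in FPKM in both knockout libraries, and Dbp, Hlf and Per3 lay below all 3 of them in wild type. The ratio of Nr1d1 to Npas2 in FPKM was 4.40 and 4.04 in the knockouts, 13.3 in Hez and 6.42 in wild type. The ratio of Dbp to Arntl was 0.268 and 0.464 in the knockouts, 0.929 in Hez and 0.653 in wild type. For Dbp to Nfil3, which act on the same element with opposite sign, the ratio was 0.200 and 0.326 in the knockouts, 0.637 in Hez and 0.605 in wild type. All 3 ratios were lowest in the knockout pair and highest in Hez, and they restate the values above on another scale.

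**Figure D3:**
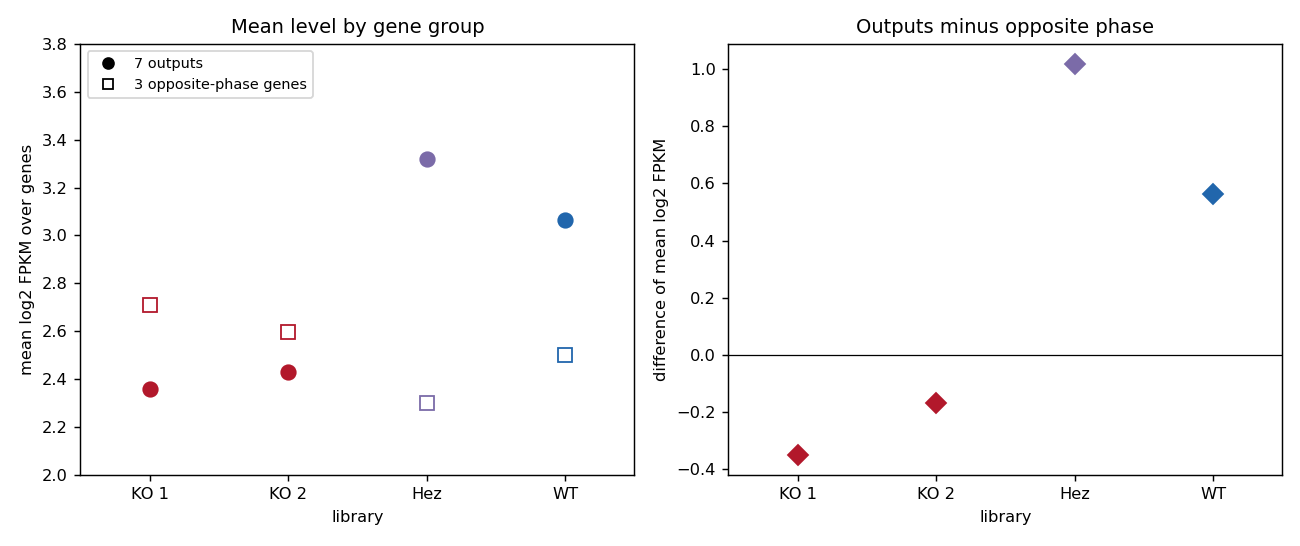
Left, mean log2 FPKM over the 7 outputs (filled circles) and the 3 opposite-phase genes (open squares) in each library (the axis starts at 2). Right, their difference, which is negative in both knockout libraries (-0.35 and -0.17) and positive in Hez (1.02) and wild type (0.56).

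Clock genes outside these 10 were taken from 3 lists of the core loop, of enzymes that modify clock proteins and of further rhythmic outputs. Of 31 genes, 30 were tested, since Rorb had too few reads. By edgeR 0 passed the adjusted threshold in any of the 3 comparisons, and DESeq2 called 0 among the 25, 30 and 23 of them that it gave an adjusted p. At an unadjusted p below 0.05, edgeR had 2 lower and 0 higher against wild type, where 3.37% of all genes were lower and 1.81% higher. It had 5 lower and 1 higher against Hez (2.11% and 2.5% of all genes), and 6 lower and 0 higher against both together (2.75% and 2.3%). Their medians were -0.13, -0.15 and -0.13.

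The other core loop genes had a median of -0.18 against wild type and -0.02 against Hez. Cry2, a cryptochrome that represses Arntl with the period proteins, stood at 59.9 and 53.2 CPM in the knockouts, 67.0 in Hez and 69.5 in wild type (log2 fold against wild type -0.30, SE 0.115, edgeR adjusted p = 0.873). Ciart, a further repressor of the loop, stood at 16.2 and 15.9 CPM in the knockouts, 18.9 in Hez and 21.0 in wild type (-0.39, SE 0.174, edgeR adjusted p = 0.984). Both were thus lowest in the knockouts without passing the test, and for neither was Hez above wild type. The cryptochrome Cry1 had a fold of -0.18 (SE 0.167, edgeR adjusted p = 0.996). Clock, the usual partner of Arntl, stood at 126 and 120 CPM in the knockouts, 118 in Hez and 118 in wild type, and Rora at 77.3 and 70.5 CPM in the knockouts, 75.1 in Hez and 75.3 in wild type.

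Genes of the enzymes that modify clock proteins had medians of -0.05 against wild type and -0.09 against Hez. Csnk1e, the kinase casein kinase 1 epsilon that phosphorylates period proteins, had a fold of -0.15 (SE 0.0979) against wild type, and Fbxl21, an F-box gene that acts on cryptochromes, one of -0.72 (SE 0.509) at under 3 CPM in every library. Sirt1, a deacetylase, stood at 0.12 (SE 0.115) and Csnk2b, a casein kinase 2 subunit, at 0.09 (SE 0.103). All 4 had edgeR adjusted p = 0.996.

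Further rhythmic outputs had a negative fitted fold against wild type in 11 of 11 genes, with a median of -0.20 (0.00 over all genes tested). Against Hez 10 of 11 were negative, with a median of -0.34 (0.01 over all genes tested). Some folds against wild type were smaller than their SE, among them Nampt (-0.05, SE 0.100), Klf10 (-0.11, SE 0.172) and Cdkn1a (-0.19, SE 0.300). In 5 of the genes, Tsc22d3, Klf9, Klf10, Klf15 and Cdkn1a, knockout 1 lay above wild type and knockout 2 below it. Usp2, a ubiquitin protease, stood at 9.47 and 8.62 CPM in the knockouts, 11.4 in Hez and 13.8 in wild type (log2 fold against wild type -0.61, SE 0.223, edgeR adjusted p = 0.831). Alas1, the first enzyme of haem synthesis, had a fold of -0.22 (SE 0.112), the tetraspanin Tspan4 one of -0.19 (SE 0.144) and the Krüppel-like factor Klf9 one of -0.28 (SE 0.214), each with edgeR adjusted p = 0.996. Against Hez, Klf9 stood at -0.73 (SE 0.211, edgeR adjusted p = 0.819) and Tspan4 at -0.50 (SE 0.141, edgeR adjusted p = 0.815).

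**Figure D4:**
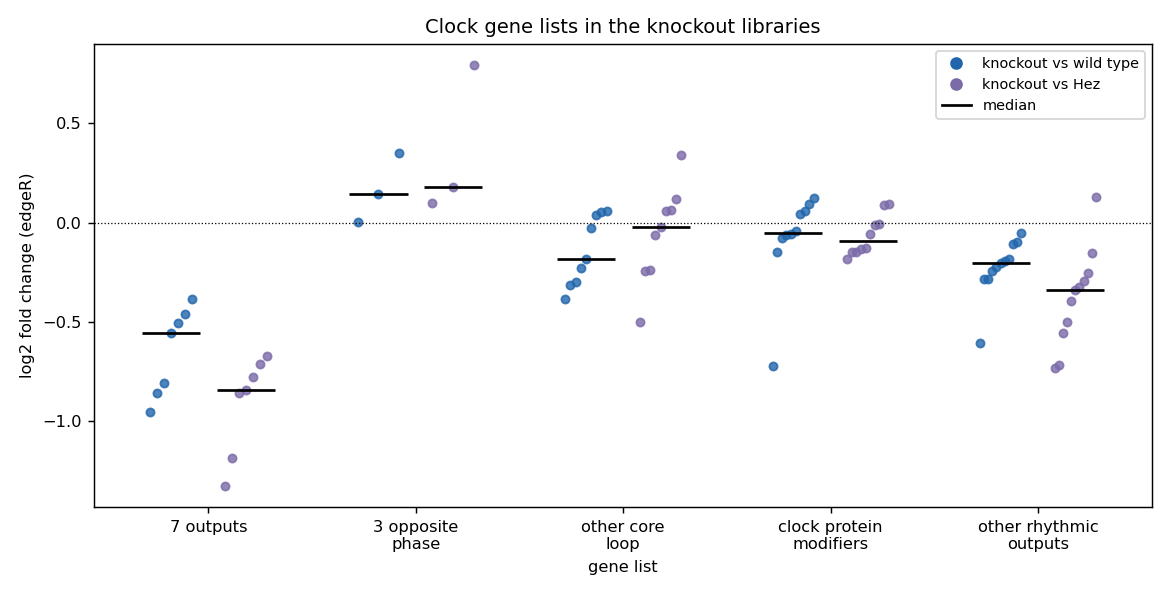
Fitted log2 fold change (vertical axis) of each tested clock gene, by list, in the knockout libraries against wild type (blue) and Hez (violet), with a black line at each list's median. The medians of the 7 outputs (-0.56 and -0.85) lie lowest, and those of the other rhythmic outputs are -0.20 and -0.34.

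Per1 differed from Per2 and Per3. It stood at 114 and 51.8 CPM in the knockouts, 117 in Hez and 80.6 in wild type, and wild type lay between the knockout libraries (log2 fold 0.04, SE 0.357, edgeR adjusted p = 0.996). Tsc22d3, Klf15 and Cdkn1a were likewise lowest in knockout 2, as was Klf9, and Tsc22d3 had 255 and 120 CPM in the knockouts, 276 in Hez and 222 in wild type. When knockout 1 was left out of the comparison with wild type and Hez together, edgeR called 107 genes (0.715% of those tested) in place of 2, and among them were these 5, lower, with adjusted p = 0.0321 for Per1, 0.00229 for Tsc22d3, 0.00925 for Klf15, 0.0219 for Klf9 and 0.00363 for Cdkn1a. These genes were singled out after their values were seen. The spread in that fit comes from the difference between Hez and wild type, and knockout 2 is assumed to vary like them. Without knockout 2 the same comparison called 0 of the 30 genes.

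Per1, Klf9 and Tsc22d3 also respond to glucocorticoids and are members of the list of such genes given here. The summed level of the list, which includes their own values, was 1427 and 1161 CPM in the knockouts, 1714 in Hez and 1377 in wild type. The list holds 10 genes, of which Mt2 is listed at 0 in all libraries. Of the 9 tested, 5 had a negative and 4 a positive fold against wild type, the highest being Dusp1 at 0.93. Against Hez 7 were negative and 2 positive. Against wild type edgeR called 1 lower and 0 higher, where 0.0399% of all genes were called lower and 0.0133% higher. Zbtb16 fell by 4.19 on the log2 scale against wild type (edgeR adjusted p = 9.14e-06), and Fkbp5 stood at -1.22 (edgeR adjusted p = 0.248). Immediate early genes, which respond within minutes to stimulation, had a positive fold against wild type in 10 of 10 members. Dusp1 is a member of this list too, so the lists are not separate. Of the 10, edgeR called 1 higher (Zfp36, adjusted p = 0.0365), where 0.0133% of all genes were. Against Hez 7 had a positive and 3 a negative fold. The summed level of the immediate early genes was 1207 and 1685 CPM in the knockouts, 1262 in Hez and 794 in wild type. The part of either list in the clock values was not tested.

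Summed levels of some lists of cell type markers were lowest in the knockouts, as the outputs were. Both knockout libraries lay below Hez and wild type in 4 of 4 adipocyte markers, where 16.3% of all tested genes did so, with a summed level of 93.6 and 75.8 CPM in the knockouts, 197 in Hez and 170 in wild type. Cardiac muscle markers, which lung holds in the walls of pulmonary veins, did so in 4 of 4 genes, with 427 and 544 CPM in the knockouts, 732 in Hez and 698 in wild type. Skeletal muscle markers did so in 2 of 3 genes, at 14.9 and 17.9 CPM in the knockouts, 19.9 in Hez and 28.9 in wild type. The remaining gene, Tnnt3, stood at 4.86 and 5.41 CPM in the knockouts, 4.96 in Hez and 14.6 in wild type. Markers of alveolar type 2 cells were above Hez and wild type in both knockout libraries in 5 of 5 genes (17.5% of all tested genes), with 24489 and 23334 CPM in the knockouts, 21410 in Hez and 20965 in wild type. Smooth muscle markers had summed levels of 1184 and 1055 CPM in the knockouts, 884 in Hez and 1516 in wild type. Club cell markers had 16701 and 13795 CPM in the knockouts, 15365 in Hez and 19530 in wild type, and multiciliated cell markers 513 and 507 CPM in the knockouts, 454 in Hez and 648 in wild type. In these last 3 lists, and in that of skeletal muscle, wild type was highest, whereas Hez was highest in the outputs. At an adjusted p below 0.05 edgeR called 1 adipocyte and 2 club cell markers lower against wild type, and 0 of the markers higher. Of all genes 0.0399% were called lower there and 0.0133% higher. Against Hez it called 0 of the markers (0.00664% of all genes). Against both together it called 1 adipocyte marker lower, where 0.0136% of all genes were. None of the markers in these lists was at 0. Their part in the clock values was not tested, and in whole tissue fewer cells of a type and less RNA per cell cannot be told apart.

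Genes whose profile over the 4 libraries was nearest that of the outputs were found by the root mean square distance between centred log2 CPM values. Among 10525 genes at a mean of 10 CPM or more and outside all lists, the nearest were Csrp3 (0.0353), Fras1 (0.112), Coq8a (0.114), Mybphl (0.131) and Ryr2 (0.133). The outputs themselves lay 0.0812 (Tef) to 0.231 (Dbp) from their own mean, and Csrp3 stood at 14.3 and 13.97 CPM in the knockouts, 26.5 in Hez and 22.6 in wild type. A mean profile was also taken of Arntl and Npas2, without Nfil3, which was higher in Hez than in wild type. On the centred scale it was 0.21 and 0.07 in the knockouts, -0.35 in Hez and 0.07 in wild type. Genes near it were thus low in Hez, among them Cd59a (0.00192), Lgals3 (0.0242), Osbpl3 (0.0279) and Atp6v0d2 (0.0312). With 4 libraries such likeness is weak, and it is given as a description.

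By position the outputs lay on 6 chromosomes. Hlf and Nr1d1 lay on the chromosome of Dnah9 (chr11:65722108-66059377), 24.2 and 32.6 megabases from it, and Per1 lay 2.93 megabases from it. The remaining 5 outputs, on other chromosomes, had folds of -0.86 to -0.38 against wild type. Reads of overlapping genes may not be separated, since how reads were assigned is not stated in the sources used here. Nr1d1 overlaps Thra on the other strand over 1075 bases, and Thra stood at 96.4 and 103 CPM in the knockouts, 111 in Hez and 114 in wild type. Dbp overlaps Sphk2 on the other strand over 737 bases, and Per3 lies within Camta1 on the same strand, at 17.5 and 16.6 CPM in the knockouts, 20.3 in Hez and 19.7 in wild type for Camta1.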

How the data were processed

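Raw read counts per gene, and FPKM values, are those deposited by the authors in 1 table of 21931 genes and 4 libraries, per the file headers. The FPKM values deposited by the authors equal the read count over library total and gene length, within a relative tolerance of 1e-06. Per the submitters' processing notes the genome build is GRCm39. The sources used here name no aligner, counter, annotation or strand setting. RefSeq windows are on GRCm38.p6, and no coordinates were converted.

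Groups follow the genotype labels. Counts were filtered with filterByExpr (minimum count 10), scaled by TMM (factors 0.993 to 1.01) and tested with edgeR 4.0.16 (quasi-likelihood, two-sided) under R 4.3.3, in 3 groups with 1 residual degree of freedom, or 2 groups with 2 for wild type and Hez together. P-values were adjusted over all genes, with a threshold of 0.05. The standard error is the fold over the square root of F. Differences of log2 CPM used a prior count of 2. Each pair of libraries differed by more than sampling noise, with a chi-square a gene of 10.3 to 12.2 for the pairs with knockout 2, the knockout pair included (10.3), and 8.23 to 8.68 for the others. The procedure was tested on simulated data.

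The genes and lists were chosen with earlier results of these data known. Of each clock list the 4 genes with the smallest p against wild type were named, besides Clock and Rora, added for their role, and others named after their values were seen. Some genes that these rules name are not reported here. Alternatives were DESeq2 1.42.0 (size factors and Wald test), library totals, no filter, a filter at a mean of 10 CPM and each library left out.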

Additional observations from a re-analysis of the deposited data

How the results depend on the processing

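All 7 outputs kept a negative fold in all 3 comparisons under every scaling, filter and test tried. The same held with each library left out, and the folds ran from -1.50 to -0.34. Both knockout libraries lay below Hez and wild type in all 7, so leaving out a library could not turn these signs. Dbp has no value at the stricter filter, which it did not pass. Arntl changed sign against wild type under 4 settings and without knockout 1, and against both together without knockout 1. Npas2 and Nfil3 kept a positive fold throughout, the lowest being 0.05 for Nfil3 against Hez without knockout 1. Both knockout libraries lay above Hez and wild type in these genes, so leaving out a library could not turn these signs either. None of the 30 recomputed differences between Hez and wild type left its counting interval.

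The median of the outputs against wild type was -0.57 with library totals and -0.55 with the stricter filter, and -0.59 to -0.56 with 1 library left out. Output minus opposite-phase median against Hez was -0.99 with the stricter filter, and -1.03 to -0.99 with 1 library left out. Against both together, with 1 library left out, the output median was -0.85 to -0.56, the opposite-phase median 0.14 to 0.26 and their difference -1.03 to -0.70, each nearest 0 without Hez.

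The 8 genes called against wild type became 4 with no filter or the stricter filter and 16 with DESeq2. The 1 gene called against Hez became 7 with DESeq2. The 2 called against both together became 1 with the stricter filter, 33 with DESeq2 and 1 to 107 with 1 library left out (107 without knockout 1, 24 without knockout 2, 8 without Hez, 1 without wild type). Other clock genes called there numbered 0 to 5. The cause was not tested. Leaving out a knockout library left no degrees of freedom against wild type or Hez alone, so no calls were made. No paired analysis was possible because the labels carry no replicate numbers and those used here pair nothing. Dbp, with 81 to 237 reads a library, had the widest standard error of the 10 clock genes.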
